A study of Mus musculus with 12 samples.

Results

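The 8 genes described here are Foxb1 and Foxb2, which encode forkhead transcription factors, Lhx1 and Lhx5, which encode LIM-homeodomain factors, the long noncoding RNA Lhx1os beside Lhx1, the zinc-finger gene Sall3, the paired-type homeobox gene Uncx and the basic helix-loop-helix gene Nhlh2. They were taken by symbol from the 32531 gene rows of the count tables, and all 8 were found and passed the filter on low counts, which left 18128 genes. Foxb2 passed it through the hypothalamus libraries alone. They were chosen because several were enriched in the ribosome-bound RNA of the hypothalamus and depleted in that of the midbrain. Their values in those contrasts are therefore given as a description without a test, with no p-value, and where they stand past the threshold used for all genes, that too is only a description. The contrast between the whole-tissue RNA of the regions was the only one tested for them.

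The study profiled adult mice of the transgenic line Slc17a6-TRAP JX883, which carry a fusion of EGFP to the ribosomal protein Rpl10a driven by Slc17a6, the gene of the vesicular glutamate transporter VGLUT2. Translating ribosome affinity purification (TRAP) pulls tagged polysomes from a tissue homogenate with anti-EGFP antibodies, so that the immunopurified fraction (IP) is weighted toward the cells that carry the tag. Hypothalamus and midbrain were dissected, and an IP and an input (RNA of the whole homogenate) were sequenced from each, with 3 libraries in each of the 4 groups and 12 in all. The transgene was present in all 4 groups, inputs included, the labels name no IP from mice without the tag, and they do not say whether a library came from 1 animal or from a pool, so p-values measure the spread between these libraries.

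The mammillary bodies form the caudal end of the hypothalamus, and their principal neurons are glutamatergic and project to the anterior thalamus and the tegmentum. Foxb1, Lhx1 and Lhx5 are known from the development of this region, and Foxb1 is required for the mammillary axon to the thalamus. LIM-homeodomain factors bind DNA through a homeodomain and recruit the cofactor Ldb1 through paired LIM domains. Lhx1 is also known from the adult suprachiasmatic nucleus, Lhx1 and Lhx5 from cerebellar Purkinje cells and from GABAergic neurons, and Nhlh2 from hypothalamic neurons that control body weight and fertility. Several of the genes are thus known from more than 1 kind of neuron.

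Values are given as CPM (counts scaled to a common library total), corrected by the trimmed mean of M values. Libraries held from 41909019 to 55148109 counts in genes, so that 3 counts, used as the floor per library, came to between 0.0544 and 0.0716 CPM. The depleted values of Lhx5 and Sall3 in the midbrain IP rested on 10 counts or more per library for Lhx5 and on 97 counts over the 3 libraries for Sall3. Slc17a6 itself was higher in the IP than in the input by 2.60 on the log2 scale in the hypothalamus and by 1.82 in the midbrain (adjusted p = 0.00184 and 0.0116, edgeR quasi-likelihood test). Of 7 hypothalamic check genes 5 were higher in the hypothalamus input than in the midbrain input, and of 7 midbrain check genes 3 were lower, so both dissections carried transcripts of their labeled region. Ribosomal RNA transcripts of Rn45s took between 5.21% and 12.5% of counts in the IPs and between 2.57% and 3.97% in the inputs. All IPs carried the same index and all inputs another, and the regions of 1 replicate number ran on different lanes, so fraction and index, and region and lane within a number, cannot be told apart.

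The genes lie at 7 loci. In the GENCODE M21 annotation of mm10, Lhx1 occupies chr11:84518284-84525535 on the minus strand and Lhx1os, a long intergenic noncoding RNA, occupies chr11:84525660-84535831 on the plus strand. These genes start head to head with a gap of 124 bases, so 1 stretch of DNA lies before both. It is shown because Lhx1 and Lhx1os are the only neighbors among the 8 genes and had differences of IP minus input of the same sign in both regions. The stretch runs from the first base of Lhx1 to the base before Lhx1os, chr11:84525535-84525659, 125 bases of the plus strand, from RefSeq on GRCm38.p6. Capitals mark the short form of the cAMP response element (TGACGT, here on the minus strand as ACGTCA) and a CCAAT box.

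Lhx1 to Lhx1os: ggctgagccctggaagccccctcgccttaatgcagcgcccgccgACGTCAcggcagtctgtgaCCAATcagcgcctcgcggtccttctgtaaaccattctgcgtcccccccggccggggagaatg

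Promoter windows, from 250 bases before to 50 after the RefSeq start, were found for 5 of the 8 genes (Foxb2, Lhx1, Lhx1os, Uncx and Nhlh2). Searched on both strands, CCAAT was in all 5 windows and in 37.4% of 32817 mouse promoter windows of the same length. TGACGT was in those of Lhx1, Lhx1os and Uncx and in 7.51% of all windows, and in Uncx 2 overlapping matches form the palindrome TGACGTCA, found in 1.79%. The homeodomain core TAATTA was in the Uncx window 2 times (5.3% of all windows) and the E-box CAGCTG, a type of site that basic helix-loop-helix factors bind, in the Nhlh2 window (16.3%). TATAAA (13.6%) and the forkhead core GTAAACA (3.65%) were in none of the 5. The windows of Lhx1 and Lhx1os share the printed stretch, so their matches are the same letters.

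Foxb1 (chr9:69757710-69760940, minus strand) and Foxb2 (chr19:16872319-16873805, minus strand) are paralogs, as are Lhx1 and Lhx5 (chr5:120431699-120441223, plus strand). Because reads of near-identical copies can be counted wrongly, their GENCODE coding sequences were compared. Foxb1 and Foxb2 shared 720 of 957 aligned coding positions (75.2%), with a longest identical run of 34 bases, and Lhx1 and Lhx5 shared 872 of 1197 (72.8%), with a longest run of 20. None of 2935 windows of 50 bases in Foxb1 occurred in Foxb2, and none of 3797 in Lhx1 occurred in Lhx5. The 90 coding bases centered on the longest identical run of each pair are printed, with capitals at the bases that differ within the pair. There were 6 between the forkhead genes (coding bases 130 to 219 in both) and 15 between the LIM genes (218 to 307 in Lhx1, 221 to 310 in Lhx5). Other stretches of the same length were not compared.

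Foxb1: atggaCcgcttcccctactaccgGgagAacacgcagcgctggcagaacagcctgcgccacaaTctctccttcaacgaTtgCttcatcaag

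Foxb2: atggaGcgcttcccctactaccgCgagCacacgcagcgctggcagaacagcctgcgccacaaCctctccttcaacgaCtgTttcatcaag

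Lhx1: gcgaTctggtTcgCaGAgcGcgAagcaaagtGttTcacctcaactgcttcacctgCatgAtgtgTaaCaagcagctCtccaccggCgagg

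Lhx5: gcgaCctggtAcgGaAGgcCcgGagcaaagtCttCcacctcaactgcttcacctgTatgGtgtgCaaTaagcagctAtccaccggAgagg

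Both forkhead genes were higher in the 3 hypothalamus IPs than in all other libraries. Foxb1 was at 166, 172 and 100.5 CPM in the 3 hypothalamus IPs and at 11.7, 18.5 and 13.2 CPM in the hypothalamus inputs. It was at 2.17, 3.97 and 1.69 CPM in the midbrain IPs and at 5.03, 8.19 and 3.86 CPM in the midbrain inputs. The hypothalamus IPs lay far above their inputs, and the midbrain IPs and inputs overlapped by IP replicate 2 and input replicate 3. The log2 difference of IP minus input was 3.34 ± 0.37 (SE) in the hypothalamus, rank 26 from the highest of 18128 genes, and -1.12 ± 0.36 in the midbrain. Leaving out 1 midbrain library at a time moved the midbrain value from -1.56 (without IP replicate 2) to -0.76 (without input replicate 2). By pair of equal replicate number it was -1.20, -1.04 and -1.17.

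An antisense gene, B230323A14Rik, overlaps Foxb1 by 2201 bases on the other strand, and no source used here gives the strand setting of the counting, so reads of the pair cannot be told apart there. The same limit holds for all 1487 bases of Foxb2, overlapped by the long intergenic noncoding RNA AC128703.1. It also holds for 69 bases of Lhx5, overlapped by the antisense gene Gm27199. Neither AC128703.1 nor Gm27199 has a row in the count tables. B230323A14Rik was at 39.3, 49.1 and 25.5 CPM in the hypothalamus IPs, at 5.09, 5.53 and 4.51 in the hypothalamus inputs, at 1.62, 0.23 and 0.23 in the midbrain IPs and at 2.79, 3.05 and 1.16 in the midbrain inputs. Its counts per count of Foxb1 were 0.237, 0.286 and 0.254 in the hypothalamus IPs and 0.434, 0.299 and 0.343 in the hypothalamus inputs. It was 0.745, 0.058 and 0.138 in the midbrain IPs and 0.553, 0.372 and 0.301 in the midbrain inputs. The ratio was lower in all 3 hypothalamus IPs than in the 3 inputs, while in the midbrain IPs and inputs overlapped.

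Foxb2 was the only one of the 8 genes with no count in a whole region. It was at 12.6, 8.98 and 8.82 CPM in the hypothalamus IPs and at 0.989, 2.02 and 1.07 CPM in the hypothalamus inputs, and it had 0 counts in all 6 midbrain libraries. Against a floor of 3 counts per library, the mean was at least 165-fold higher in the hypothalamus IP than in the midbrain IP and at least 21.4-fold higher in the hypothalamus input than in the midbrain input. Within the hypothalamus the log2 difference of IP minus input was 2.90 ± 0.46 (SE). If reads of both strands were counted, these values may include reads of AC128703.1. Counts of Foxb2 per count of Foxb1 were 0.0762, 0.0523 and 0.0878 in the hypothalamus IPs and 0.0844, 0.109 and 0.0812 in the inputs, and those ranges overlapped. In the midbrain inputs, 820 counts of Foxb1 came with 0 of Foxb2.

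The sequence before Foxb2 is printed because Foxb2 was the only gene of the 8 without midbrain counts. It covers the 250 bases before the RefSeq start on GRCm38.p6, chr19:16873831-16874080 of the minus strand, and capitals mark a CCAAT box on the other strand (ATTGG). A further CCAAT match begins 4 bases before the start and runs across it, past the end of the printed bases.

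Foxb2 upstream: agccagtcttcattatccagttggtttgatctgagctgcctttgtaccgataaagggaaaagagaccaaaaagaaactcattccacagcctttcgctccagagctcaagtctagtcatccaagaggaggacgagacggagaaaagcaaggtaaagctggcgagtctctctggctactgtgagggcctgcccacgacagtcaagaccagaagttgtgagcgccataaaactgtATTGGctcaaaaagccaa

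**Figure D1:**
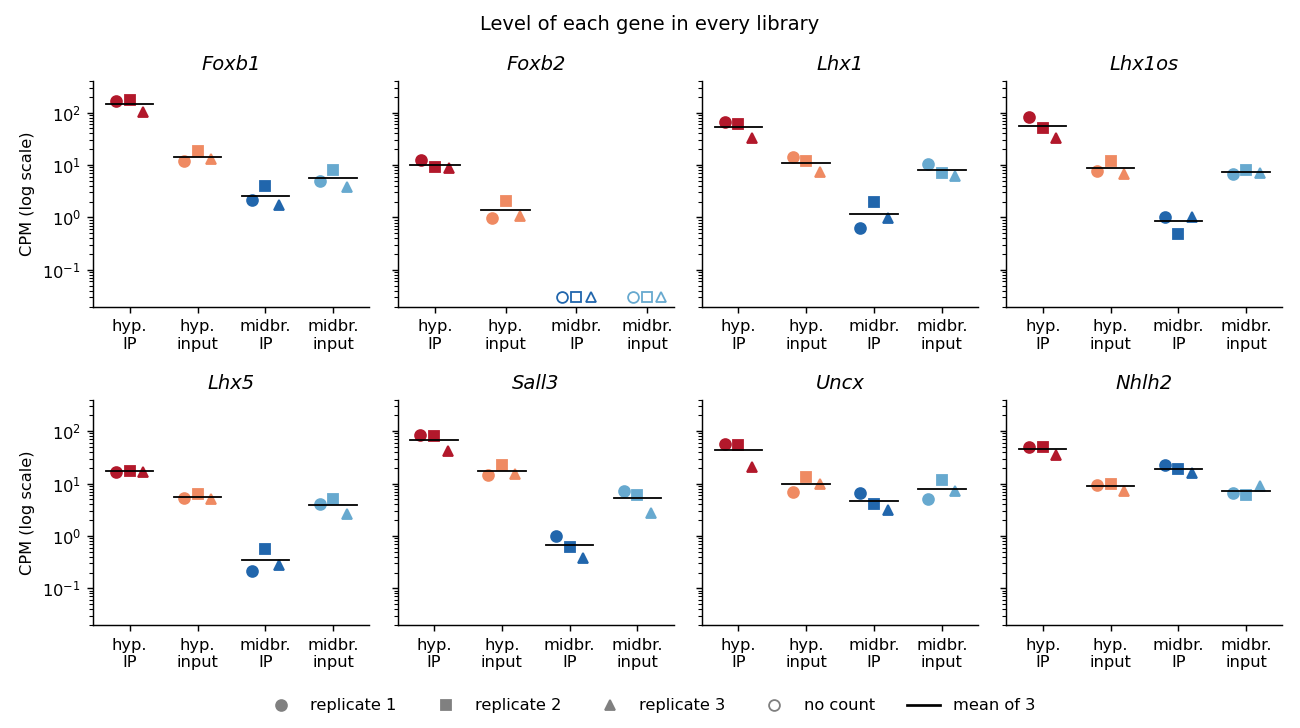
CPM of each gene (log scale) in each of the 12 libraries, grouped by region and fraction. All 3 hypothalamus IPs lie above the other 9 libraries for each of the 8 genes (an order found for 3.67% of all genes); Foxb2 has no count in the 6 midbrain libraries (open symbols at the bottom).

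Lhx1 and Lhx5 were present in the inputs of both regions and split in opposite directions in the IPs. Lhx1 was at 67.1, 59.3 and 32.9 CPM in the hypothalamus IPs against 13.998, 11.7 and 7.25 CPM in the inputs, and at 0.616, 1.98 and 0.973 CPM in the midbrain IPs against 10.7, 7.13 and 6.15 CPM in the inputs. Lhx5 was at 16.8, 17.2 and 16.9 CPM in the hypothalamus IPs against 5.35, 6.37 and 5.16 CPM in the inputs, and at 0.213, 0.557 and 0.275 CPM in the midbrain IPs against 4.15, 5.10 and 2.58 CPM in the inputs. For both genes, IP and input did not overlap in either region. The log2 differences of IP minus input were 2.27 ± 0.41 (SE) for Lhx1 and 1.59 ± 0.34 for Lhx5 in the hypothalamus, and -2.74 ± 0.44 and -3.48 ± 0.38 in the midbrain. In the midbrain the mean input level was thus 6.68-fold above the IP for Lhx1 and 11.2-fold for Lhx5 in the fit. Lhx5 was the only gene of the 8 for which hypothalamus IP replicate 3 was not the lowest of the 3, and its spread there was 0.239 CPM (SD, n = 3) around a mean of 16.96.

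Lhx1os, whose function is not known from the sources used here, had differences of IP minus input with the signs of those of its neighbor Lhx1. It was at 83.2, 51.7 and 33.2 CPM in the hypothalamus IPs against 7.66, 12.1 and 6.69 CPM in the inputs, and at 0.999, 0.480 and 1.04 CPM in the midbrain IPs against 6.82, 8.0 and 7.0 CPM in the inputs. Groups of IP and input did not overlap in either region, and the log2 differences were 2.67 ± 0.37 (SE) and -3.12 ± 0.39. Counts of Lhx1os per count of Lhx1 were 1.24, 0.871 and 1.01 in the hypothalamus IPs and 0.547, 1.03 and 0.922 in the inputs, and they were 1.62, 0.243 and 1.07 in the midbrain IPs and 0.640, 1.12 and 1.14 in the inputs. These ratios overlapped between fractions in both regions. The ratio of 0.243 rests on 25 counts of Lhx1os.

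Sall3, at chr18:80966376-80986771 on the minus strand, encodes a spalt-type zinc-finger factor. It was at 82.5, 80.6 and 41.0 CPM in the hypothalamus IPs against 14.6, 22.1 and 15.2 CPM in the inputs. It was at 0.999, 0.614 and 0.381 CPM in the midbrain IPs against 7.19, 6.12 and 2.70 CPM in the inputs. IP and input did not overlap in either region, and the log2 differences were 1.97 ± 0.40 (SE) and -3.0 ± 0.45. The hypothalamus IP was 102-fold above the midbrain IP in the fit (log2 difference 6.67 ± 0.51). This was the highest fitted value among the 7 genes with counts in every group. Its standard error overlapped those of Lhx1os (6.06 ± 0.44) and Foxb1 (5.80 ± 0.42), so Sall3 is not set apart from these.

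Uncx and Nhlh2 were the exceptions in the midbrain. Uncx (chr5:139543494-139548179, plus strand) was at 56.1, 53.2 and 20.3 CPM in the hypothalamus IPs against 6.97, 13.05 and 9.73 CPM in the inputs, and at 6.67, 4.03 and 3.17 CPM in the midbrain IPs against 5.11, 11.6 and 7.28 CPM in the inputs. The midbrain IPs and inputs of Uncx overlapped, and by replicate number the log2 difference was 0.38, -1.51 and -1.19. Its fitted log2 differences were 2.12 ± 0.44 (SE) in the hypothalamus and -0.79 ± 0.43 in the midbrain. Nhlh2 (chr3:102010076-102015492, plus strand) was at 50.2, 49.5 and 34.96 CPM in the hypothalamus IPs against 9.37, 9.99 and 7.17 CPM in the inputs, and at 22.4, 18.6 and 15.6 CPM in the midbrain IPs against 6.67, 6.08 and 9.08 CPM in the inputs. It was the only gene of the 8 that was higher in the IP than in the input in all pairs of both regions. Its log2 differences were 2.34 ± 0.24 (SE) and 1.37 ± 0.23.

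**Figure D2:**
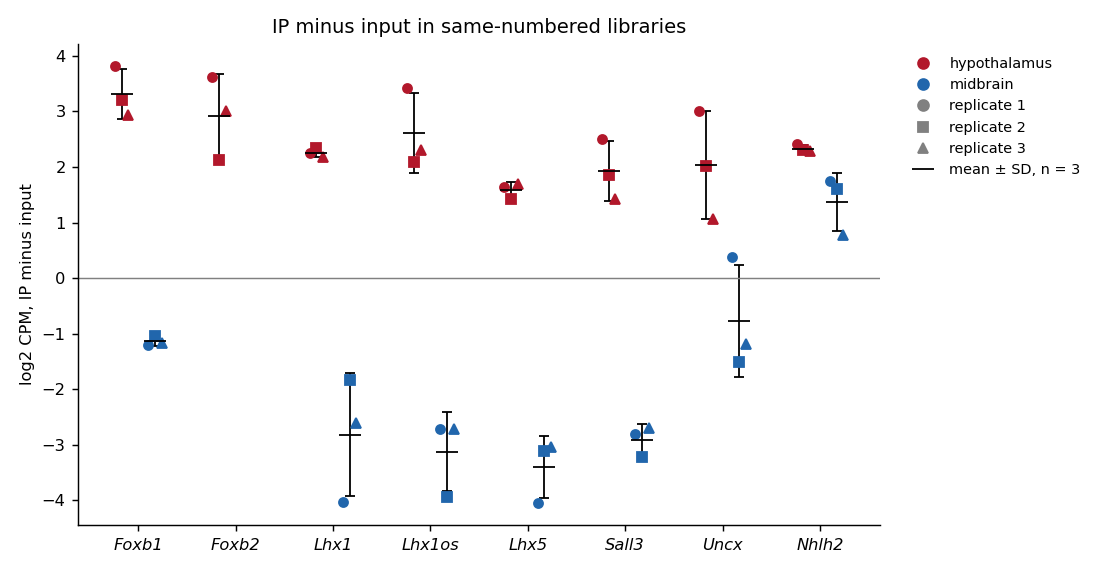
Log2 difference of IP minus input for each gene in the hypothalamus and the midbrain; symbols are the 3 pairs of equal replicate number and bars their mean ± SD. Nhlh2 is above 0 in both regions (means 2.33 and 1.37), Foxb1, Lhx1, Lhx1os, Lhx5 and Sall3 are above 0 in the hypothalamus and below it in the midbrain, and Foxb2, with no midbrain count, has no midbrain value.

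At an adjusted p of 0.05 over all genes tested, all 8 genes were past the threshold as higher in the hypothalamus IP than input, a call made for 14.2% of genes (19.6% were called lower). In the midbrain IP 5 were past it as lower (19.9% of genes) and 1, Nhlh2, as higher (14%), while Uncx and Foxb2 were not. The median log2 difference of the 8 was 2.31 in the hypothalamus and -1.93 in the midbrain (-2.74, that of Lhx1, over the 7 with midbrain counts), against -0.08 and -0.05 over all genes. The difference between the regions in IP minus input was past the threshold for 14 genes, 0.0772% of those tested (0.0607% higher in the hypothalamus and 0.0165% lower), and Foxb1, Lhx1, Lhx1os, Lhx5 and Sall3 were 5 of them, with log2 values of 4.46, 5.01, 5.79, 5.08 and 4.98. It was 2.91 ± 0.61 (SE) for Uncx and 0.97 ± 0.33 for Nhlh2, neither past the threshold. Being past the threshold as higher in the hypothalamus IP and as lower in the midbrain IP was met by 13 genes (0.0717%), which were those 5 and Arhgef3, B230323A14Rik, Bag3, Frmd5, Gnrh1, Lhfpl1, Nkx2-1 and Smyd1. All 3 IPs lay above all 3 inputs for the 8 genes in the hypothalamus (19.7% of all genes). In the midbrain they did so for Nhlh2 (21.1%), and they lay below the inputs for Lhx1, Lhx1os, Lhx5 and Sall3 (27.8%). The genes had been chosen on these contrasts, so nothing is read from the counts.

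Between the IPs, all 8 genes were past the threshold as higher in the hypothalamus, a call made for 2.05% of genes (2.21% were called lower and 4.26% either way). The replicate number as a block raised the number of genes past it in either direction from 773 to 2024. Log2 differences were 5.80 ± 0.42 (SE) for Foxb1, 5.47 ± 0.49 for Lhx1, 6.06 ± 0.44 for Lhx1os, 5.59 ± 0.41 for Lhx5, 3.22 ± 0.46 for Uncx and 1.25 ± 0.23 for Nhlh2. The standard errors of the 4 values from 5.47 to 6.06 overlapped, and Uncx and Nhlh2 lay below them. All 3 hypothalamus IPs lay above all 3 midbrain IPs for the 8 genes, an order found for 10% of all genes. This contrast shares the IPs with the contrasts above, so its values repeat part of the same measurements. The summed level of the 8 genes was 535, 492 and 289 CPM in the hypothalamus IPs and 34.0, 30.2 and 23.1 CPM in the midbrain IPs.

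The contrast between the inputs was not used to choose the genes, although the inputs had been the denominators. Of the 7 genes with counts in both regions, 0 passed the test (edgeR quasi-likelihood test), against 1.0% of all genes called higher, 0.601% called lower and 1.61% called either way. At an unadjusted p of 0.05, 2 would have passed, Sall3 and Foxb1. Foxb2 was past the threshold as higher in the hypothalamus input, but since it had entered the test through the hypothalamus libraries alone it had to differ, and nothing is read from that call. Sall3 and Foxb1 were higher in all 3 hypothalamus inputs than in all 3 midbrain inputs without passing, with log2 differences of 1.70 (95% interval 0.82 to 2.57, adjusted p = 0.0594) and 1.34 (0.57 to 2.11, adjusted p = 0.0957). Inputs of equal replicate number deviated together from their group means (r from 0.141 to 0.379 over 3 pairs), and with that number as a block both passed, at 1.81 (adjusted p = 0.00075) and 1.39 (adjusted p = 0.000693). Sall3 also passed with scaling by library size alone (adjusted p = 0.0301), without hypothalamus IP replicate 3 (adjusted p = 0.0456) and, like Foxb1, with DESeq2 (adjusted p = 0.00163 and 0.0118).

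The other 5 genes had smaller fitted differences between the inputs. The log2 difference was 0.51 for Lhx5 (-0.21 to 1.24, adjusted p = 0.687), 0.46 for Lhx1 (-0.41 to 1.33, adjusted p = 0.828) and 0.31 for Uncx (-0.61 to 1.23, adjusted p = 0.927). For Lhx1os and Nhlh2 it was 0.28 (-0.48 to 1.04, adjusted p = 0.917, and -0.22 to 0.78, adjusted p = 0.805), and without hypothalamus input replicate 2 the value of Lhx1os turned to -0.02. The intervals allow differences of up to 1.04 to 1.33 for Lhx1, Lhx1os, Lhx5 and Uncx, so equal levels are not shown. Lhx1, Lhx1os, Uncx and Nhlh2 overlapped between the inputs. Foxb1, Lhx5 and Sall3 did not, with the hypothalamus above, an order found for 11.9% of all genes, and neither did Foxb2, which had no midbrain count. The median over the 7 genes was 0.46, that of Lhx1, against 0.01 over all genes. In bulk RNA, fewer cells of a type and less RNA per cell cannot be told apart in any of these contrasts.

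Scaling by library size alone moved the share of higher calls among all genes past the threshold between the inputs from 62.5% to 74.1%, and the median of all genes from 0.01 to 0.13. For the hypothalamus IP against input it moved the share from 42.1% to 28.9% and the median from -0.08 to -0.25. No direction of the 8 genes changed with the scaling in any contrast.

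**Figure D3:**
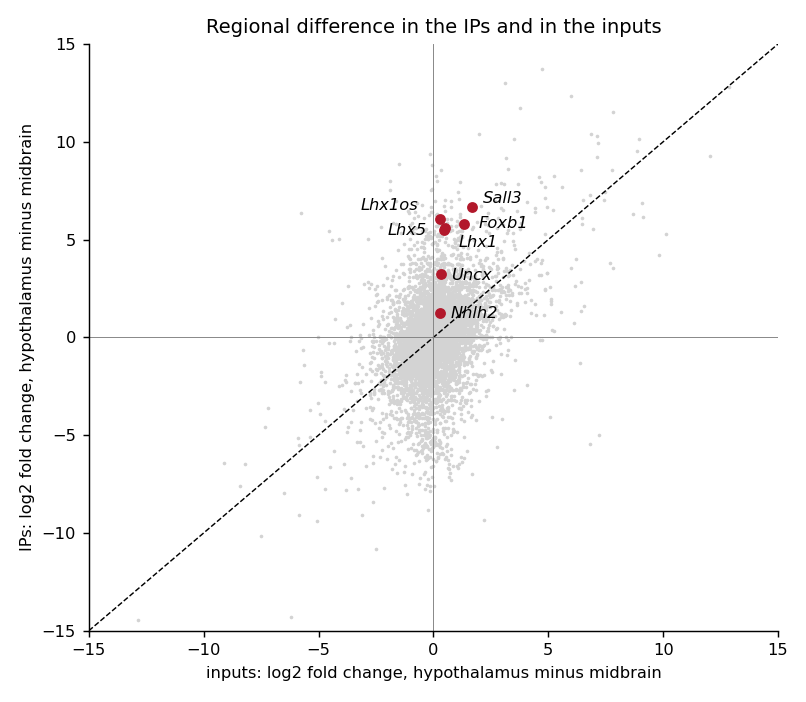
Log2 difference of hypothalamus minus midbrain in the inputs (horizontal axis) and in the IPs (vertical axis) for all genes tested (gray) and for 7 of the 8 genes (red); the dashed line marks equal values. Lhx1, Lhx1os and Lhx5 lie between 0.28 and 0.51 in the inputs and between 5.47 and 6.06 in the IPs; Foxb2, without midbrain counts, is not drawn.

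To rank the genes by level, CPM was divided by the exon length of each gene (CPM per kb). In the hypothalamus IP Lhx1os was at 80.2 ± 36.2 CPM per kb (SD, n = 3) and Foxb1 at 49.0 ± 13.3, which overlap within their spread. Uncx (13.8 ± 6.33), Lhx1 (13.0 ± 4.4), Sall3 (9.1 ± 3.13), Nhlh2 (8.29 ± 1.59), Foxb2 (6.83 ± 1.46) and Lhx5 (6.31 ± 0.089) followed, and after the step from Foxb1 to Uncx no neighbors in that order differed beyond their spread. The exon length of Lhx1os is 698 bases, the shortest of the 8, so its level per length depends most on the annotated exons.

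In the midbrain IP the order was another. Nhlh2 led with 3.48 ± 0.631 CPM per kb (SD, n = 3), above Uncx (1.48 ± 0.582) and Lhx1os (1.2 ± 0.446) beyond their spread. Foxb1 followed at 0.875 ± 0.403, and Lhx1 (0.292 ± 0.173), Lhx5 (0.129 ± 0.0682) and Sall3 (0.0888 ± 0.0417) were the lowest with counts. In the midbrain input Lhx1os was highest (10.4 ± 0.913) and Uncx (2.55 ± 1.05), Lhx1 (1.96 ± 0.583), Foxb1 (1.91 ± 0.751), Lhx5 (1.47 ± 0.474) and Nhlh2 (1.34 ± 0.294) were within their spread of each neighbor. Sall3 was at 0.713 ± 0.313 there. Nhlh2 was thus at the head of the order in the midbrain IP, while in the midbrain input it was within its spread of Lhx5, the gene above it.

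**Figure D4:**
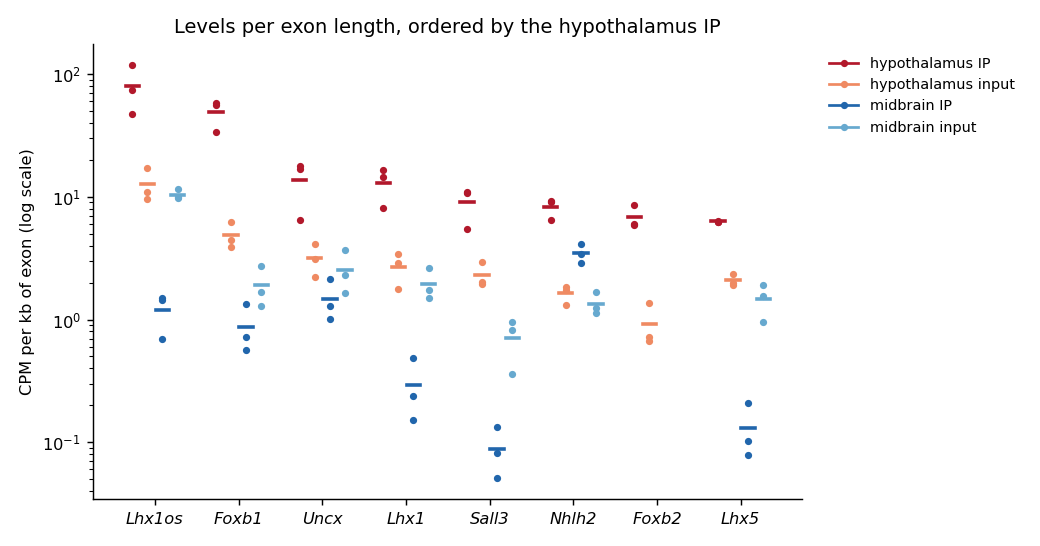
Level per exon length (CPM per kb, log scale) of each gene in the 4 groups; points are the 3 libraries and short lines their mean. Lhx1os and Foxb1 head the hypothalamus IP and Nhlh2 heads the midbrain IP; Foxb2 has no point in the midbrain.

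Hypothalamus IP replicate 3 was the lowest of the 3 for 7 of the 8 genes. The same library was the highest of the 3 for Gad2, which encodes a GABA-synthesizing enzyme, with 290 CPM against 93.4 and 123 CPM in replicates 1 and 2, and it was between them for Slc17a6, with 1743 CPM against 3489 and 1122 CPM. The part of these differences in the spread of the 8 genes was not tested. Without that library the hypothalamus difference of IP minus input was 2.53 for Lhx1 and 2.50 for Nhlh2, in place of 2.27 and 2.34.

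Because Lhx1 and Lhx5 are also known from GABAergic neurons, a list of 16 GABAergic markers was read beside them. In the midbrain 13 fell in the IP and none rose (median log2 difference -3.59), and their summed level was 67.7 to 173 CPM in the IPs against 1167 to 1559 CPM in the inputs. Gad1 fell by 3.36 on the log2 scale and Slc32a1, the vesicular GABA transporter, by 3.29 (adjusted p = 1.22e-05 and 3.66e-05, edgeR). The midbrain values of Lhx1, Lhx1os, Lhx5 and Sall3, from -2.74 to -3.48, lay near that median, and the part of GABAergic RNA in them was not tested. In the hypothalamus 11 of the 16 fell and none rose (median -3.23, 156 to 334 CPM in the IPs against 1723 to 2043 CPM in the inputs), Gad1 by 2.50 (adjusted p = 6.8e-05), while Lhx1, Lhx1os, Lhx5 and Sall3 were higher in the IP. No GABAergic marker had 0 counts throughout the midbrain IPs, and 2 did in the hypothalamus IPs.

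Markers of glial, endothelial and ependymal cells mostly went down in both IPs. All 6 astrocyte, 6 oligodendrocyte and 6 microglia markers fell in each region, with median log2 differences between -3.90 and -5.09, as did 5 of 6 endothelial and 6 of 6 ependymal and tanycyte markers in the hypothalamus and 4 and 5 of 6 in the midbrain. Of 9 suprachiasmatic markers, read because Lhx1 is known from that nucleus, 3 fell in the hypothalamus IP (Vip, Avp and Six6) and 1 rose (Zfhx3), against a median of -0.04. In the midbrain IP 2 of them rose (Prok2 and Rgs16) and none fell, against a median of 0.3. Of 8 cerebellar markers, read because Lhx1 and Lhx5 are known from Purkinje cells, 7 were tested. The list is not confined to Purkinje cells. Cbln1 and Calb1 rose in both IPs, Barhl2 also rose and Eomes fell in the midbrain IP, and the others did not pass. Calb1 is known from mammillary neurons as well and stands on that list too.

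Other transcription factors of the mammillary region were compared as a list of 14 genes, all tested, chosen like the lists above with earlier results of these data known. In the hypothalamus IP Nkx2-1 (2.31, adjusted p = 0.0197), a homeobox factor of the ventral hypothalamus, was among 2 genes that rose against the input, and none fell, with a median of 0.36. In the midbrain IP 9 fell (Otp, Lmx1a, Lmx1b, Foxa1, Foxa2, Nkx2-1, Emx2, Tbx3 and Wnt8b) and 2 rose, Barhl1 among them, with a median of -3.54. Of the 7 midbrain check genes, 3 also fell in the midbrain IP and 0 rose, with a median of -0.78. They were Pax7 (-3.08), Th (-2.40) and Slc6a3 (-3.93; adjusted p = 0.00685, 0.000394 and 0.00239, edgeR). Which midbrain cells the falls of the list came from was not tested. The fall of Nkx2-1 rests mostly on 1 midbrain input library. The summed level of the 14 genes did not fall there, with 28.2 to 48.3 CPM in the midbrain IPs and 29.4 to 42.2 CPM in the inputs. In the hypothalamus it was 207 to 398 CPM in the IPs and 78.9 to 119 CPM in the inputs. In the regional difference of IP minus input none of the 14 passed in edgeR (10 at an unadjusted p of 0.05, 8 with DESeq2, 0 with limma-voom and 3 with the replicate block), with a median of 3.91. Between the IPs 11 of the 14 were higher in the hypothalamus and 1, Barhl1, was lower, with a median of 4.75. Between the inputs 4 were higher, among them Sim1, Otp and Nkx2-1, and none lower, with a median of 1.09.

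Another 10 transcripts known from adult mammillary neurons, peptides, enzymes and calcium-binding proteins were counted in the same way. Of these, 5 rose in the hypothalamus IP (median 1.51) and 5 in the midbrain IP (median 1.22), and none fell in either. Cck, a peptide precursor, rose by 2.48 and 1.83 (adjusted p = 0.000557 and 0.00323, edgeR), Calb1, a calcium-binding protein, by 1.5 and 1.53 (adjusted p = 9.36e-05 and 8.65e-05) and Adcyap1, the precursor of the peptide PACAP, by 1.89 and 1.48 (adjusted p = 0.0178 and 0.0496). Cartpt rose in the hypothalamus by 1.97 (adjusted p = 0.0236), and its midbrain value was -1.45 (adjusted p = 0.0763), so its fitted values had opposite signs, like those of Foxb1. Pvalb also rose in the hypothalamus and had a negative midbrain value, of -0.47 (adjusted p = 0.364). Tac1 and Nts went the other way. They rose in the midbrain IP, by 2.31 and 2.20 (adjusted p = 0.0265 and 0.0129, edgeR), and did not pass in the hypothalamus IP. Their regional differences of IP minus input were -1.51 and -1.38. Between the IPs 3 of the 10 were higher in the hypothalamus and none lower (median 0.89). Between the inputs 1 was higher and 2, Cck and Pvalb, were lower (median 0.9). None of the 10 passed the test of the regional difference of IP minus input in edgeR (2 at an unadjusted p of 0.05, 2 with DESeq2, 0 with limma-voom and 2 with the replicate block), with a median of 0.41, and the value of Cartpt was 3.43 ± 0.84 (SE, adjusted p = 0.248).

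**Figure D5:**
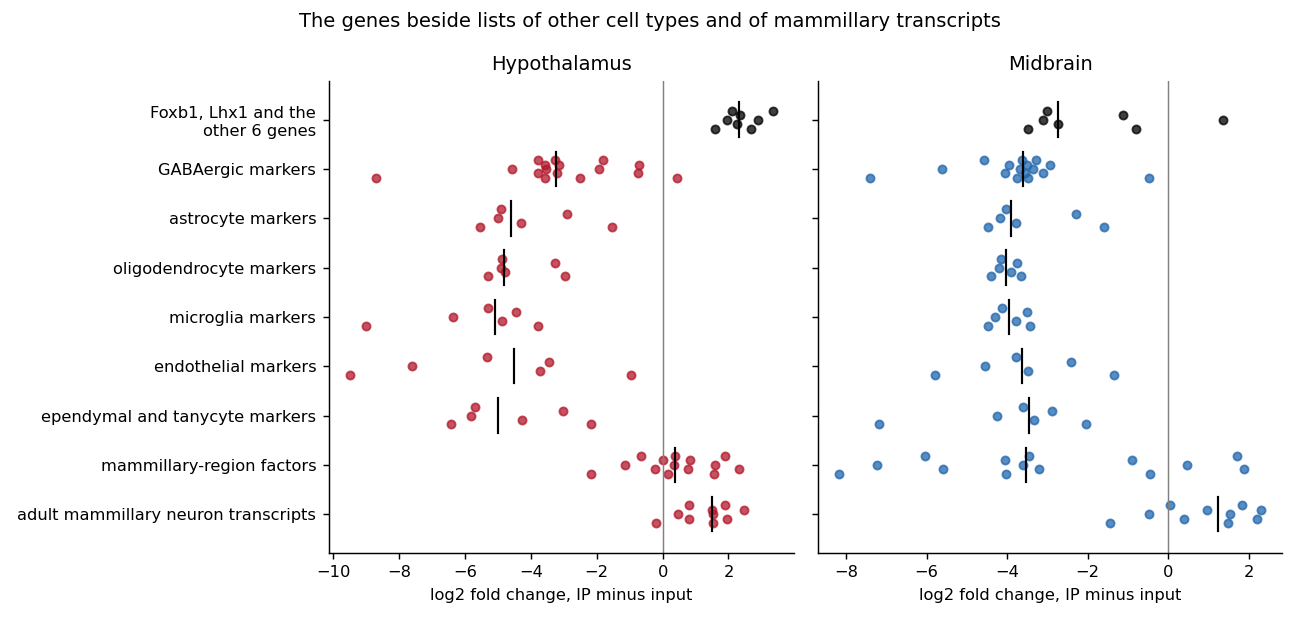
Log2 differences of IP minus input in the hypothalamus and the midbrain for the 8 genes and for lists of other cell types and of mammillary transcripts; each point is a gene tested and each bar the median. The medians of the 8 genes are 2.31 and, without Foxb2, which is not drawn in the midbrain, -2.74, those of the 14 mammillary-region factors 0.36 and -3.54, and those of the 16 GABAergic markers -3.23 and -3.59.

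Relatives of the 8 genes were counted by family. Of 10 other LIM-homeodomain genes 8 were tested. In the hypothalamus IP Lhx2 (1.68) and Lhx9 (1.99) rose and Lhx6 (-4.56) and Lhx8 fell, and in the midbrain IP Lhx2 (2.13) rose and Lhx6 (-3.75), Lhx8, Isl1 (-3.42), Lmx1a and Lmx1b fell (all adjusted p under 0.05, edgeR). Lhx6 is a factor of GABAergic neurons and stands on that list too. Of 10 LIM partners, the Ldb and Ssbp cofactors, the LIM-only Lmo genes and Rlim, a ubiquitin ligase, 2 rose in each IP and none fell, with medians of 0.20 and 0.44. The medians of all genes were -0.08 and -0.05.

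Of 39 other forkhead genes 27 were tested. In the hypothalamus IP 2 rose and 9 fell (median -0.59) and in the midbrain IP 3 rose and 14 fell (median -1.55), and none passed between the inputs in edgeR (4 at an unadjusted p of 0.05, 1 with DESeq2, 1 with limma-voom and 3 with the replicate block). Foxk2 rose by 0.39 and 0.60 (adjusted p = 0.0441 and 0.00569, edgeR), a small change beside that of Foxb1. Sall1, a relative of Sall3, fell in both IPs, by 3.21 and 1.63 (adjusted p = 0.00143 and 0.0348), and Sall2 and Sall4 did not pass.

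Among 7 genes tied to Nhlh2, which are its paralog Nhlh1, the E proteins it pairs with and reported targets, none rose in either IP. Tcf4 and Tcf12, which encode E proteins, fell by 1.38 and 1.17 in the hypothalamus IP and by 1.59 and 1.58 in the midbrain IP (adjusted p = 0.00337, 0.00445, 0.0016 and 0.000819, edgeR). Nhlh1 fell in both and Tcf3 in the midbrain. None of the 7 passed between the IPs or between the inputs in edgeR (1 in each at an unadjusted p of 0.05, 0 with DESeq2, limma-voom or the replicate block). Nhlh2 was thus higher in both IPs while 2 of its partners were lower in both.

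The genes whose log2 CPM followed those of 4 of the 8 most closely over the 12 libraries were found among 13411 genes with a group mean of at least 1 CPM. For Foxb1 they were Dgkb (Pearson r = 0.976), Cbx5 (0.947), Grtp1 (0.947), Insm2 (0.940) and Uncx (0.940). For Lhx5 they were Lhx1 (0.973), Nebl (0.958), Bag3 (0.958), Npy (0.957) and Sall3 (0.956), and for Sall3 they were Npy (0.973), Gnrh1 (0.968), As3mt (0.961), Lhx5 (0.956) and Lhx1os (0.953). For Nhlh2 they were Sptssa (0.981), Aprt (0.975), Dnajc12 (0.972), Rasip1 (0.971) and Snrnp40 (0.966), and none of the other 7 genes was among them. The 12 libraries fall into 4 groups, so these coefficients mostly describe the 4 group means. Gnrh1, which encodes gonadotropin-releasing hormone, was at a mean of 20.4 CPM in the hypothalamus IP and had 0 counts in the midbrain IPs.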

How the data were processed

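For each of the 12 libraries the authors deposited a table of raw counts by gene symbol, made with STAR 2.0.0e on mm10 and with HTSeq, per the submitters' processing notes. Annotation and strand setting are not given in the sources used here. The 5 HTSeq summary rows were left out: ambiguous reads were 1.37% to 2.0% of all rows in the IPs and 4.03% to 16.15% in the inputs, highest in both replicate 1 inputs, and reads without a unique alignment were 37.3% to 48.6% and 23.7% to 30.0%. Overlapping genes are therefore uncertain. Reads carried no molecular identifiers, so floors cover counting error only.

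Counts were analyzed in R 4.3.3 with edgeR 4.0.16: filterByExpr, TMM scaling, 1 robust quasi-likelihood fit of 4 group means over the 12 libraries, and Benjamini-Hochberg adjustment over the 18128 genes tested (threshold 0.05), which gives every adjusted p not credited to another tool. Standard errors and 95% intervals came from that fit. Coordinates, exon lengths and coding sequences came from GENCODE M21, and promoters from RefSeq, read with Python 3.11.15 and Biopython 1.88. The code was tested on simulated counts.

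The 8 genes and all gene lists were chosen with earlier results of these data known. Lists name at most the 4 tested genes of highest mean CPM, and fuller lists of calls were named after their values were seen. Some list genes are counted but not reported here singly. The most alike genes were the 5 of highest Pearson r of log2 CPM (prior count 2), leaving out Gm and Rik symbols. Same-numbered libraries deviated together in all 3 pairs for hypothalamus IP and input (r from 0.155 to 0.324), for the IPs (0.113 to 0.301) and for the inputs (0.141 to 0.379). For midbrain IP and input r was lower but also above 0 in all 3 pairs (0.075 to 0.189). So it was for hypothalamus IP and midbrain input (0.074 to 0.204) and for hypothalamus input and midbrain IP (0.09 to 0.235). This pairing comes from the data, not from the labels. Alternatives were DESeq2 size factors, library size alone, no filter on low counts, the replicate block, DESeq2 1.42.0, limma-voom (limma 3.58.1) and leaving out each library, and, added after seeing the data, leaving out the 4 libraries of number 1.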

Additional observations from a re-analysis of the deposited data

Results flagged for a closer look

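Among the 18128 genes tested, 153 (0.844%) had a log2 difference of IP minus input above 0 in all 3 hypothalamus pairs and below 0 in all 3 midbrain pairs of equal replicate number. They include 5 of the 8 genes and all 13 genes called higher in the hypothalamus IP and lower in the midbrain IP. Values are given for the 5, for the antisense gene beside Foxb1 and for the list gene named as an example that was called in both regions. The mean difference between the regions was 4.46 for Foxb1 (pairs from 2.93 to 3.82 in the hypothalamus and from -1.2 to -1.04 in the midbrain), 5.08 for Lhx1 (2.18 to 2.34 and -4.03 to -1.83) and 5.74 for Lhx1os (2.09 to 3.43 and -3.95 to -2.71). It was 5.0 for Lhx5 (1.43 to 1.7 and -4.05 to -3.05) and 4.84 for Sall3 (1.43 to 2.5 and -3.23 to -2.7). These splits were not tested, since the 5 genes had been chosen for them. It was 5.0 for B230323A14Rik (2.49 to 3.14 and -3.51 to -0.77), which overlaps Foxb1. It was 4.5 for Nkx2-1 (1.9 to 2.6 and -3.79 to -0.93), whose midbrain values rest on 5 counts over the 3 IPs and on 81 over the 3 inputs. The midbrain inputs were at 0.0769, 0.124 and 1.68 CPM. Most of the 81 counts thus came from the library at 1.68 CPM, and the others lay near the floor. For neither B230323A14Rik nor Nkx2-1 was the regional difference past the threshold in the fit over all genes (edgeR).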

How the results depend on the processing

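Over 19 alternatives none of the 8 genes changed direction in a contrast with IPs, and between the inputs 1 value did: that of Lhx1os was -0.02 without hypothalamus input replicate 2 and at most 0.39 with 1 library left out. The number of genes past the threshold in the regional difference of IP minus input was 14 as reported, 105 with the replicate block, 213 with DESeq2, 8 with limma-voom, 9 without the 4 libraries of number 1 and 8 to 33 with 1 library left out. Between the IPs it was 773 as reported, 2024 with the replicate block, 1800 with DESeq2 and 373 to 758 with 1 library left out; it was 373 without hypothalamus IP replicate 2, and 451 and 474 without midbrain IP replicates 1 and 2. Between the inputs it was 291 as reported, 1097 with the replicate block, 777 with DESeq2 and 93 to 364 with 1 library left out; it was 151, 93 and 190 without hypothalamus input replicates 1, 2 and 3, and 130, 122 and 138 without midbrain input replicates 1, 2 and 3. The counts for IP against input stayed within 1.5 times. The block changed 2 calls among the 8 genes between the inputs, those of Foxb1 and Sall3. The cause of these changes was not tested. Among the 52 list genes named as examples, 119 values past the threshold gave 2086 values under the alternatives on the same side and 175 that no longer passed, and none was reversed. With 3 libraries a group, the intervals of the input contrast span more than 1 log2 unit for Foxb1, Lhx1, Lhx1os, Lhx5, Sall3 and Uncx.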
